A study of Brassica juncea with 18 samples.

Results

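The cold-regulated (COR) proteins and BN28a of *Brassica juncea* siliques were represented by 9 of the 13342 transcripts in the expression table, which belong to 4 of its 9446 unigenes. A transcript was included when its best hit in the annotation named a cold-regulated protein, COR14, COR15, COR27, COR413, KIN1, KIN2 or BN28. It was left out when the hit was named a dehydrin, COR47 or an ERD protein. The rule went by the name of the hit, and protein families were not checked by sequence. Whole siliques of the variety Varuna were collected every 5 days from day 5 to day 30 after pollination (DAP), which gives 6 stages. At each stage, cut branches with self-pollinated siliques were placed in water and exposed to 4 °C under light for 6 h or 12 h, while control branches were left in water outdoors, and 1 library was sequenced for each stage and duration (18 in all). The stages therefore served as the replicates of a duration, and p-values measured the spread between these single libraries, for which nothing in the labels tells biological from technical variation. No source used here states at which hour siliques were harvested, or how long control branches stood in water. Cold, harvest hour and time since cutting can therefore not be told apart in any comparison with the control. Any other difference between the cold chamber and outdoors also goes with cold. Between 12 h and 6 h, length of exposure, time since cutting and hour of start or harvest cannot be told apart either.

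COR genes are a classical output of cold signalling in plants. In *Arabidopsis*, low temperature induces the CBF/DREB1 transcription factors, which bind the C-repeat element in the promoters of many COR genes, and several of the encoded proteins are small, hydrophilic and protect membranes or enzymes during freezing and desiccation. COR15A of *Arabidopsis* and COR14 of barley are imported into the chloroplast stroma, and BN28 of *B. napus* is a relative of the small *Arabidopsis* proteins KIN1 and COR6.6. COR27 differs from these in that it is a nuclear protein of *Arabidopsis* that acts, together with COR28, on the promoters of clock genes such as PRR5 and TOC1.

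The 9 transcripts were divided over the unigenes as follows. Unigene c69711_g17 had a single transcript, c69711_g17_i1 (1047 bp), with the best hit "cold-regulated protein", a late embryogenesis abundant domain and annotation to the chloroplast stroma and envelope, and the primer list of the study names it COR14. Unigene c53443_g1 had c53443_g1_i1 (427 bp, "cold-regulated protein") and c53443_g1_i2 (266 bp, "cold-regulated protein Cor25"), and is called Cor25 here after the second of these. The annotation of c53443_g1_i2 includes response to water, and whether Cor25 is itself a dehydrin was not tested. Unigene c64555_g3 had c64555_g3_i1 (353 bp), c64555_g3_i2 (857 bp) and c64555_g3_i3 (344 bp), all with BN28a as the best hit over 65 residues. Unigene c64594_g1 had c64594_g1_i1 (1565 bp), c64594_g1_i2 (1525 bp) and c64594_g1_i3 (1552 bp), whose best hit is cold regulated protein 27 (COR27) and whose annotation places it in the nucleus. Isoforms of 1 unigene share reads, and *B. juncea* is an amphidiploid with near-identical gene copies, so that the division of reads among isoforms is uncertain. In the whole assembly of 133641 transcripts, 11 further transcripts of 6 unigenes matched, all of them membrane proteins of the COR413 or COR314 kind. They are not in the expression table and were not analysed here.

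Values are FPKM (fragments per kilobase of transcript, relative to the mapped fragments of the library, scaled by TMM between libraries), tested as log2(FPKM + 1) with limma. Changes on this scale are a mean over the 6 stages with a standard error (SE), and understate the change of low transcripts. The threshold for a call was 0.05 on the p adjusted by Benjamini-Hochberg for all 13342 transcripts. Because the authors deposited only transcripts which differed between at least 1 pair of the 18 libraries, a call here is not independent evidence of a response. Between 11194 and 12462 transcripts were above 0 in a library. The 5 DAP 6 h library stood apart, with 874 transcripts 4-fold or more above its control, against 312 to 497 at the other stages after 6 h. Without it, all 9 COR and BN28a transcripts were still called higher after 6 h and after 12 h. The share of reads kept on filtering was over 90% in 8 libraries (control and 6 h of 5 to 20 DAP) and lower in the other 10, so that this read class is partly confounded with the 12 h group. The deposited files hold no read counts, so that no counting interval was computed for a single value. Libraries were not of equal depth, the 10 DAP 12 h library being the shallowest and the 25 DAP 12 h library the deepest in mapped reads, and values of low transcripts are least precise in the shallow ones. In whole siliques, more cells of a type cannot be told apart from more RNA per cell.

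COR14 was low in every control silique and high in every cold-treated one. Its FPKM, from 5 DAP to 30 DAP in steps of 5 days, was 8.45, 10.7, 19.2, 24.1, 24.6 and 13.0 in the control. It was 349, 527, 426, 135, 120 and 211 FPKM after 6 h and 527, 888, 859, 720, 150 and 469 FPKM after 12 h at the same stages. Neither duration overlapped with the control, and the fold at a single stage was lowest at 25 DAP and highest at 10 DAP for both durations, from 4.87 to 49.1 after 6 h and from 6.08 to 82.8 after 12 h. In the limma fit, COR14 (c69711_g17_i1) was higher by 3.95 on the log2 scale after 6 h (SE 0.42, adjusted p = 1.4e-05) and by 4.99 after 12 h (SE 0.42, adjusted p = 2.19e-06). The 12 h change was the 2nd highest among all transcripts of the table.

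**Figure D1:**
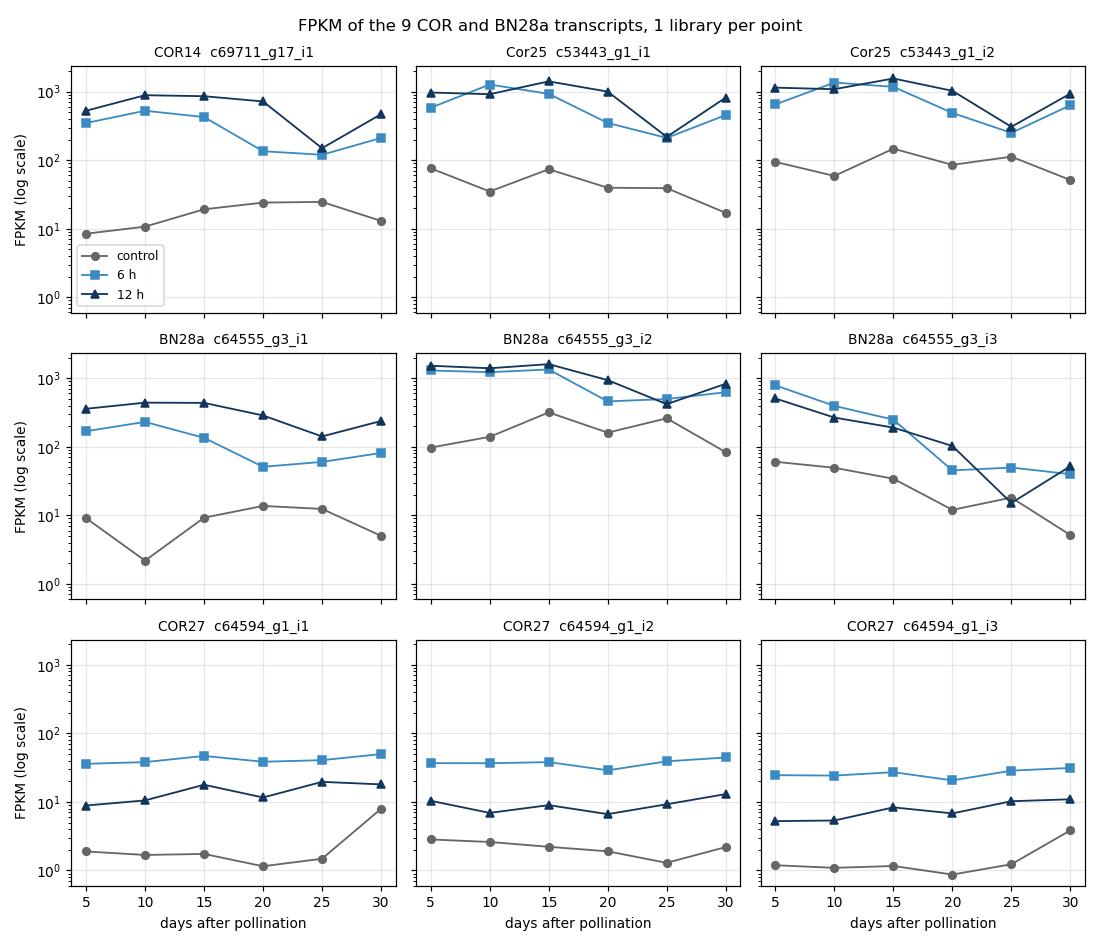
FPKM (log axis) of the 9 transcripts against days after pollination, with 1 library per point, in the control and at both durations. Cold-treated siliques lie above the control of their stage at every point but 1, BN28a c64555_g3_i3 at 25 DAP after 12 h (15.1 against 18.1 FPKM), and the 3 COR27 transcripts have their 12 h values between control and 6 h.

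By FPKM, Cor25 stood among the most abundant transcripts of the expression table in cold-treated siliques, although its isoforms are short and FPKM depends on length. The isoform with the higher FPKM, c53443_g1_i2, had 94.4, 59.0, 147, 85.5, 113 and 51.3 FPKM in the control at the 6 stages in order. It had 652, 1359, 1176, 489, 250 and 636 FPKM after 6 h and 1145, 1087, 1558, 1029, 307 and 938 FPKM after 12 h. The groups did not overlap with the control, and the lowest cold-treated values were again those of 25 DAP. This isoform was higher by 2.92 after 6 h (SE 0.34, adjusted p = 2.78e-05) and by 3.39 after 12 h (SE 0.34, adjusted p = 8.64e-06). The other isoform, c53443_g1_i1, ranged from 212 to 1272 FPKM after 6 h (median 519) and from 219 to 1414 FPKM after 12 h (median 945), against 17.1 to 76.2 FPKM in the control (median 39.4), and its log2 changes were 3.65 and 4.19.

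BN28a had 3 isoforms of unequal level and unequal course. The most abundant, c64555_g3_i2, had 97.5, 140, 317, 161, 260 and 83.5 FPKM in the control at 5 to 30 DAP, which was the highest control level of the 9 transcripts at each stage. After 6 h it had 1299, 1226, 1343, 459, 498 and 625 FPKM, and after 12 h 1523, 1399, 1607, 939, 419 and 830 FPKM. Its cold-treated values lay above all control values, but the smallest margin was at 25 DAP, where the fold was 1.92 after 6 h and 1.61 after 12 h. The log2 change was 2.38 after 6 h (SE 0.34, adjusted p = 0.00019) and 2.69 after 12 h (SE 0.34, adjusted p = 7.43e-05), the smallest change of the 9 transcripts at 6 h.

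The third BN28a transcript, c64555_g3_i3, had its highest value at 5 DAP in all 3 conditions. Its FPKM at 5 to 30 DAP was 60.4, 49.4, 34.2, 12.0, 18.1 and 5.15 in the control, 788, 395, 249, 45.2, 49.8 and 39.8 after 6 h, and 507, 267, 190, 103, 15.1 and 52.1 after 12 h. Within a stage, cold exceeded control in every case except 12 h at 25 DAP, where the fold was 0.83. Over stages the groups overlapped, since the control of 5 DAP (60.4 FPKM) was above the 6 h values of 20, 25 and 30 DAP. The log2 change was 2.58 after 6 h (SE 0.38, adjusted p = 0.000236) and 2.29 after 12 h (SE 0.38, adjusted p = 0.000646). Without the stage block the adjusted p of c64555_g3_i3 was 0.0732 at 6 h and 0.132 at 12 h. With the read class of the libraries (over or under 90% of reads kept on filtering) as a term its 12 h change was 1.69, with an adjusted p of 0.0974. That estimate rests on the 12 h libraries of 25 and 30 DAP, and in these stages alone the change was 1.43.

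The remaining isoform, c64555_g3_i1, had the largest 12 h change of all 13342 transcripts. Its FPKM in the control was 9.09, 2.18, 9.22, 13.7, 12.4 and 5.02 at the 6 stages. It was 169, 231, 135, 51.1, 60.2 and 81.2 FPKM after 6 h and 359, 440, 437, 286, 142 and 238 FPKM after 12 h. Its fold at a single stage reached 202 after 12 h at 10 DAP, where the control was at its lowest. The log2 change was 3.63 after 6 h (SE 0.43, adjusted p = 3.69e-05) and 5.12 after 12 h (SE 0.43, adjusted p = 2.14e-06).

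COR27 had lower medians than the other COR transcripts in each condition and varied less over the stages after 6 h. The longest and most abundant transcript, c64594_g1_i1, had 1.89, 1.68, 1.74, 1.15, 1.48 and 7.92 FPKM in the control, 35.9, 38.1, 46.8, 38.5, 40.6 and 49.8 FPKM after 6 h, and 8.85, 10.5, 17.8, 11.6, 19.6 and 18.0 FPKM after 12 h. The 3 groups did not overlap with one another, although the control of 30 DAP came close to the lowest 12 h library. Its log2 change was 3.74 after 6 h (SE 0.23, adjusted p = 7.1e-08) and 2.22 after 12 h (SE 0.23, adjusted p = 1.07e-05). The other transcripts had medians of 37.4 (c64594_g1_i2) and 25.8 FPKM (c64594_g1_i3) after 6 h and 9.10 and 7.56 FPKM after 12 h, against 2.20 and 1.18 FPKM in the control. After 6 h, the SD of log2 values over stages was 0.18 to 0.20 for the 3 COR27 transcripts and 0.73 to 1.85 for the other 6, which is given here as a description.

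Across the 9 transcripts, all 9 were called higher after 6 h and all 9 after 12 h. Of all transcripts in the table, 12.6% were called higher after 6 h and 10.2% after 12 h. The 2 comparisons share their control libraries, so their calls are not independent of one another. Log2 changes of the 9 lay between 2.38 and 3.95 at 6 h (median 3.60) and between 1.67 and 5.12 at 12 h (median 2.69), whereas the median of all transcripts was close to 0 in both. The 6 h siliques did not overlap with the control for 8 of the 9 transcripts, and the 12 h siliques for 8 of 9, with c64555_g3_i3 the exception in both. In the whole table, 6.09% of transcripts lay fully above the control after 6 h and 4.83% after 12 h. Of the 54 single-stage ratios, 54 were above 1 after 6 h and 53 after 12 h. These ratios share control libraries, and isoforms of 1 unigene share reads, so they are not independent. Such ratios were not counted over all transcripts.

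**Figure D2:**
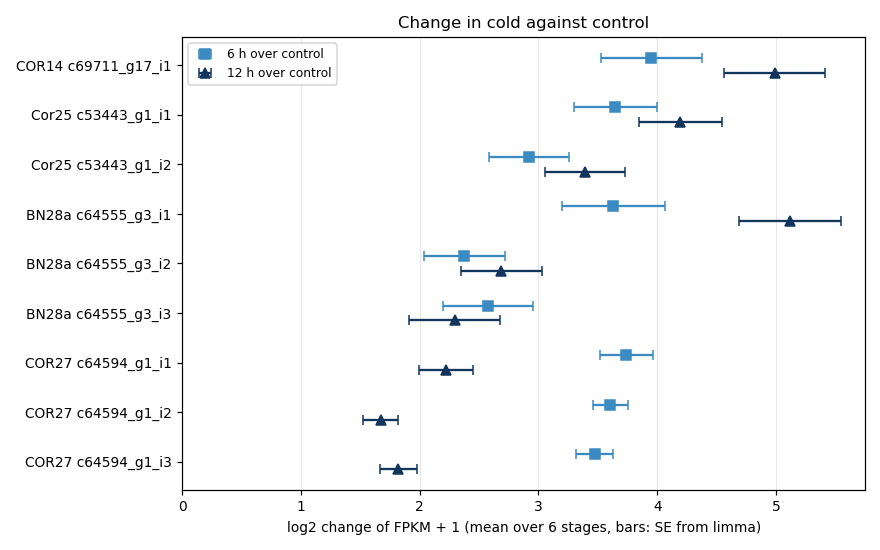
Log2 change of FPKM + 1 against control, mean over 6 stages, for each of the 9 transcripts after 6 h and 12 h, with SE from limma as bars. After 12 h the changes are 5.12 for BN28a c64555_g3_i1 and 4.99 for COR14 at the upper end, and 1.67 for COR27 c64594_g1_i2 at the lower.

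The comparison of 12 h with 6 h divided the members. Length of exposure and hour of day cannot be told apart in it. All 3 COR27 transcripts were lower after 12 h than after 6 h, by -1.52 (c64594_g1_i1, SE 0.23, adjusted p = 0.00114), -1.93 (c64594_g1_i2, SE 0.15, adjusted p = 2.35e-06) and -1.65 (c64594_g1_i3, SE 0.16, adjusted p = 1.98e-05) on the log2 scale. In the table, 3.62% of transcripts were called lower and 1.29% higher after 12 h. The ratio of 12 h to 6 h was below 1 at 18 of 18 single-stage comparisons of COR27 and ranged from 0.19 to 0.48. These come from 3 isoforms of 1 unigene in the same libraries and are not independent. The 6 h libraries lay fully above the 12 h libraries for these 3 transcripts, as for 1.18% of all transcripts. With read class as a term, the adjusted p of c64594_g1_i1 was 0.0933 (log2 difference -1.44), and the other COR27 transcripts stayed called. This fit sets the 12 h libraries of 25 and 30 DAP against 6 h libraries of all stages.

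None of the 6 other transcripts passed the threshold between durations. The difference was positive for 5 of them, at 1.49 for c64555_g3_i1 (SE 0.43, adjusted p = 0.0732), 1.04 for COR14 (SE 0.42, adjusted p = 0.244), 0.55 and 0.47 for Cor25 and 0.31 for c64555_g3_i2, while c64555_g3_i3 had -0.28. COR14 and c64555_g3_i1 were above their 6 h value at 6 of 6 stages after 12 h. With read class as a term, which separates the 12 h from the 6 h libraries at 5 to 20 DAP, the difference was 0.30 for COR14 (adjusted p = 0.977), 1.06 for c64555_g3_i1 (adjusted p = 0.685) and -0.15 for c64555_g3_i2 (adjusted p = 0.977). This fit takes its 12 h estimate from 25 and 30 DAP and its 6 h estimate from all stages. Read class and stage are therefore mixed in these differences. In 25 and 30 DAP alone the differences were 0.73, 1.38 and 0.08 in the same order. Without the 10 DAP libraries, c64555_g3_i1 was called higher after 12 h (log2 difference 1.60, SE 0.33, adjusted p = 0.0258). Over the 6 transcripts, 29 of the 36 single-stage ratios of 12 h to 6 h were above 1, and the highest ratio of each of them was at 20 DAP (5.61 for c64555_g3_i1, 5.33 for COR14). Most of these transcripts are isoforms, all were measured in the same libraries, and their ratios are not independent.

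**Figure D3:**
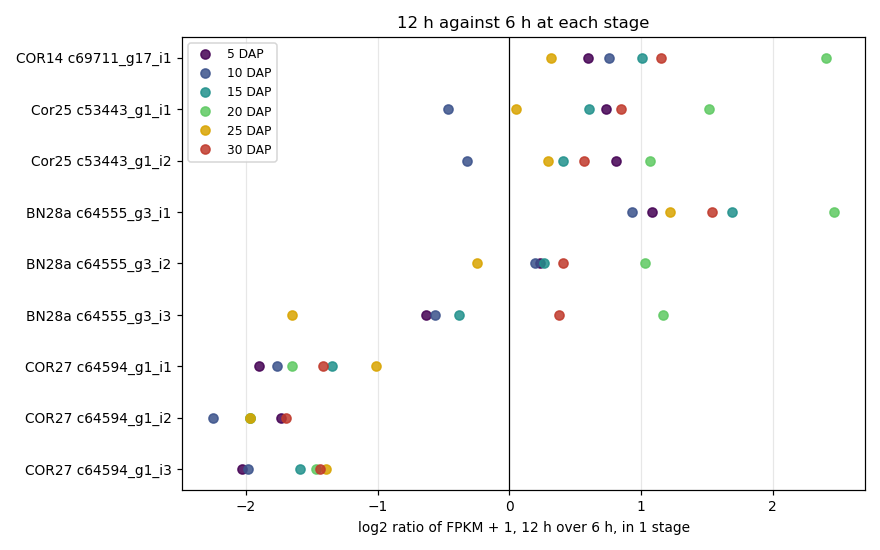
Log2 ratio of FPKM + 1 between the 12 h and the 6 h library of each stage, for the 9 transcripts, with 1 point per stage. COR27 lies left of 0 at 18 of 18 points, from isoforms of 1 unigene, and each other transcript has its highest point at 20 DAP.

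The stages were compared as late (20 to 30 DAP) and early (5 to 15 DAP), the phases into which the study divides them. The cold change, with 6 h and 12 h averaged, was called higher for 9 of 9 transcripts in late stages (log2 changes of 1.97 to 3.79) and 9 of 9 in early stages (2.44 to 5.43). In the whole table of 13342 transcripts, 751 were called higher in late stages and 1074 in early stages. With 1 stage left out, calls of COR14 and Cor25 were kept in both phases, while some of COR27 and BN28a were lost. This fit averages the durations, and its SE for COR27 c64594_g1_i2 was 0.68, against 0.15 in the fit by duration. Among early stages, COR27 c64594_g1_i2 had log2 changes of 2.44, 2.53 and 2.35 without 5, 10 or 15 DAP (adjusted p = 0.0917 to 0.124), against 2.44 with all stages, and an adjusted p of 0.0649 without the 5 DAP 6 h library, and c64594_g1_i3 had 2.56 without 15 DAP (adjusted p = 0.0555). Among late stages, the 3 BN28a isoforms had changes of 1.42 to 2.93 without 30 DAP (adjusted p = 0.0543 to 0.149), against 1.97 to 3.47 with all stages, and c64555_g3_i3 had 1.75 without 20 DAP (adjusted p = 0.0865). The 3 COR27 transcripts had 2.53 to 3.06 without 20 DAP (adjusted p = 0.0504 to 0.0742) and 2.41 to 2.68 without 25 DAP (adjusted p = 0.0649 to 0.0862), and c64594_g1_i2 had 2.76 without 30 DAP (adjusted p = 0.0944), against 2.62 to 2.91 with all stages. COR14 had 3.51 in late stages and 5.43 in early stages, the highest early-stage change of the table. The difference between the phases, late minus early, was -1.92 for COR14 (SE 0.72, unadjusted p = 0.0195, adjusted p = 0.902), -1.82 for c64555_g3_i1 and -1.11 for c64555_g3_i2, and between -0.93 and 0.40 for the other 6. No transcript of the table was called in this test by limma (0%), although 690 had an unadjusted p under 0.05. With 6 h and 12 h kept as separate terms, a fit chosen after seeing the data, the difference for COR14 had an SE of 0.54 and an adjusted p of 0.713, again with 0 calls in the table. A difference between the phases in the cold change was therefore not established for any of the 9.

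The 25 DAP siliques had the lowest 6 h or 12 h level of several members. After 12 h, COR14 and both Cor25 isoforms were at 150, 219 and 307 FPKM at 25 DAP, against 469 or more at every other stage. The median log2 change of the 9 transcripts at 25 DAP was 2.24 after 6 h and 2.33 after 12 h, compared with 2.50 to 3.87 at the other stages after 6 h and 2.78 to 3.59 after 12 h. These medians join transcripts of opposite course. The 12 h fold over control was lowest at 25 DAP for COR14, Cor25 and the BN28a isoforms. It was highest at 25 DAP for the 3 COR27 transcripts (13.2, 7.16 and 8.32). In the same pair of libraries, 502 of all transcripts exceeded the control 4-fold or more after 12 h, the highest such count of the 12 h libraries (292 to 443 at the other stages). These are single libraries, and no test applies to a stage.

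The level itself, averaged over control, 6 h and 12 h, was compared between late and early stages on the 6 stage means. The BN28a isoform c64555_g3_i3 was lower in late stages, by -2.67 on the log2 scale (SE 0.40, adjusted p = 0.0362), and was the only one of the 9 to be called. In the table, 0.277% of transcripts were called lower and 3.43% higher in late stages. Without the 5, 10, 25 or 30 DAP libraries in turn, the difference was -2.33, -2.70, -2.57 and -2.53 with an adjusted p of 0.122 to 0.206, and 0 transcripts of the table were called in any of these 4 fits or without the 5 DAP 6 h library. The adjusted p of c64555_g3_i3 was 0.0743 in control libraries alone (log2 difference -2.05) and 0.0533 without the 5 DAP 6 h library (-2.43). Differences of the other 8 transcripts, none of which was called, ran from -1.11 for c53443_g1_i1 to 0.30 for c64594_g1_i3.

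The make-up of BN28a differed with stage and with cold. In the control, c64555_g3_i3 held 36.2% of the FPKM of its unigene at 5 DAP and 5.50 to 9.47% from 15 DAP on. Its share was 34.9% after 6 h and 21.2% after 12 h at 5 DAP, and 2.63 to 8.51% after 12 h from 15 DAP on. Isoform c64555_g3_i1 held 1.14 to 7.34% in the control, 7.48 to 12.5% after 6 h and 15.0 to 24.6% after 12 h, and these ranges did not overlap. The share of c64555_g3_i2 had medians of 87.1% in the control, 79.9% after 6 h and 71.3% after 12 h. Shares of 1 unigene sum to a fixed total and depend on the isoform lengths and on how reads were divided among isoforms, and they were not tested.

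**Figure D4:**
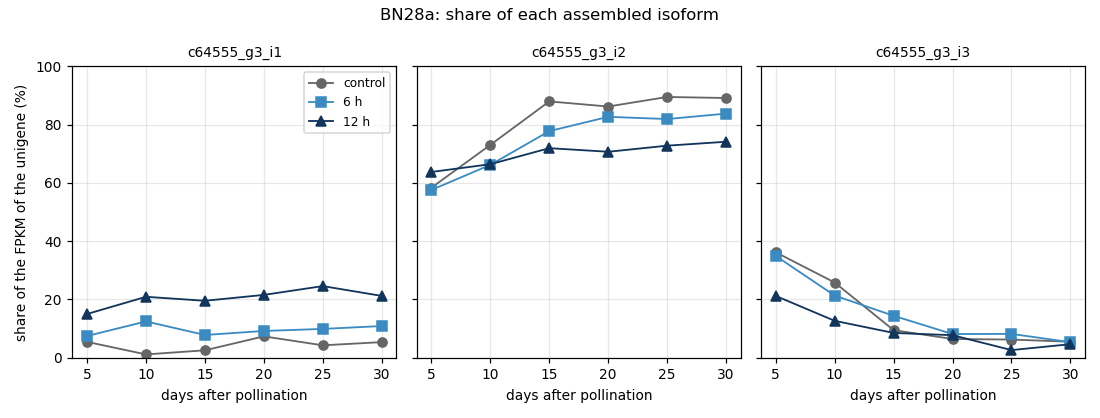
Share of the summed FPKM of the BN28a unigene (per cent) held by each of its 3 isoforms, against days after pollination, for control, 6 h and 12 h. The share of c64555_g3_i1 lies between 15.0 and 24.6% in all 12 h libraries, and that of c64555_g3_i3 is highest at 5 DAP in each condition.

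Together the 9 transcripts held a larger share of the summed FPKM of the table in the cold than in the control. FPKM divides by length, and several of them are short. Cor25 has 427 and 266 bp, and BN28a c64555_g3_i1 and c64555_g3_i3 have 353 and 344 bp. Shares and ranks therefore depend on the lengths as assembled, and this was not tested. They held 0.12 to 0.51% of the summed FPKM of the 13342 transcripts in control libraries (median 0.32%), 0.83 to 4.49% after 6 h (median 2.11%) and 0.74 to 5.89% after 12 h (median 3.65%). The highest shares were at 15 DAP in the control, 10 DAP after 6 h and 5 DAP after 12 h, and the lowest cold shares were both at 25 DAP. Of the 9 transcripts, 0 or 1 stood among the 100 most abundant of the table in a control library, 3 to 6 after 6 h and 2 to 6 after 12 h. BN28a c64555_g3_i2 ranked 4th in the 5 DAP libraries of both durations. In the 10 DAP library after 6 h, Cor25 c53443_g1_i2 ranked 6th and c53443_g1_i1 7th. All these ranks are within the 13342 transcripts of the table and not within the whole assembly.

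**Figure D5:**
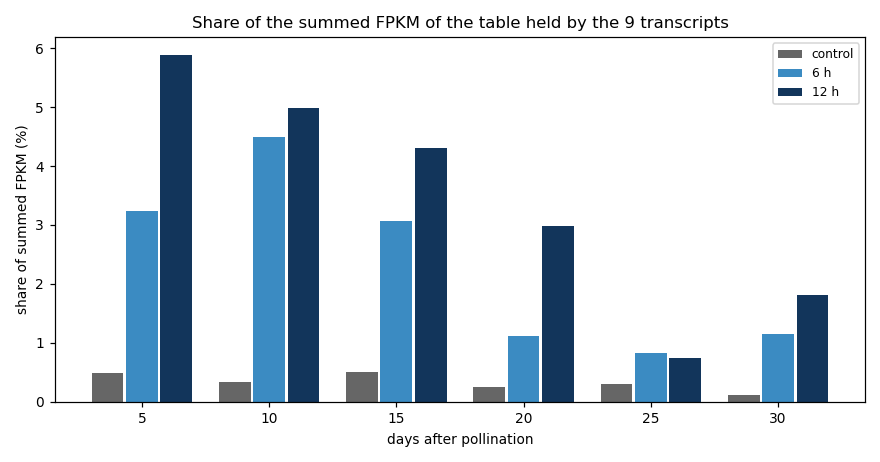
Share of the summed FPKM of the table (per cent) held by the 9 transcripts in each library, by days after pollination, for control, 6 h and 12 h. Control bars are at 0.12 to 0.51%, and the highest bar, 5.89%, is 5 DAP after 12 h.

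When log2 values were correlated over the 18 libraries, the COR27 transcripts went together, as did COR14, Cor25, c64555_g3_i1 and c64555_g3_i2. BN28a c64555_g3_i3 was less closely tied to either set. This is a description of libraries that share stage and duration. Pairs of COR27 transcripts had a Pearson r of 0.946 to 0.992, and pairs among COR14, Cor25, c64555_g3_i1 and c64555_g3_i2 had 0.929 to 0.990. Between COR27 and the 6 others r was 0.428 to 0.710, and c64555_g3_i3 had 0.679 to 0.803 with COR14, Cor25 and the other BN28a isoforms. Among transcripts of other unigenes with a named best hit, the course of COR14 was most like that of BN28a c64555_g3_i1 (r = 0.979), the ERD4 protein (c66317_g1_i4, 0.974) and early-responsive to dehydration 7 (c66527_g1_i2, 0.974). Cor25 c53443_g1_i2 was closest to a dehydrin (c56112_g1_i2, 0.993), a LEA14-like desiccation-related protein (c52045_g1_i1, 0.976) and COR14 (0.972). BN28a c64555_g3_i2 was closest to the dehydrins c56112_g1_i2 (0.967) and c38136_g1_i1 (0.967) and to c63718_g1_i1 (0.963), whose best hit is a pentatricopeptide repeat protein but whose sister isoform hits a plasma membrane protein of the COR413 kind. COR27 c64594_g1_i1 had other neighbours, namely an alpha-crystallin domain protein (c61014_g2_i1, 0.950), a DnaJ protein (c49327_g1_i1, 0.944) and pseudo-response regulator 5a (c70128_g1_i4, 0.936).

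The CBF/DREB1 factors, which activate COR genes in *Arabidopsis*, had 9 transcripts in the table. Of these, 4 were called higher and 0 lower after 6 h, and 4 higher and 0 lower after 12 h, with median log2 changes of -0.19 and 0.92. Between 12 h and 6 h, 1 was called higher and 0 lower, 5 had an unadjusted p under 0.05, and the median difference was 0.82. In the whole table, 12.6% of transcripts were called higher after 6 h, 10.2% after 12 h, and 1.29% after 12 h than after 6 h. A c-repeat binding factor (c38050_g1_i1) had 2.24 to 6.34 FPKM after 6 h and 0.20 to 4.14 FPKM after 12 h, against 0 to 0.15 FPKM in the control. DREB1B (c106397_g1_i1) had medians of 5.14 FPKM after 6 h and 2.56 FPKM after 12 h, against 0.17 FPKM in the control, with log2 changes of 2.26 (adjusted p = 0.000135) and 1.44 (adjusted p = 0.0044). A CBF-like protein (c49245_g1_i1) had medians of 2.84 and 3.14 FPKM, against a control listed at 0 in the median. The highest value of any of these 3 factors was 8.43 FPKM, against 49.8 FPKM for the most abundant COR27 transcript and 1607 FPKM for the most abundant BN28a transcript. These 3 had the smallest p of the 9 in the limma tests against control, and levels of the others are not given here.

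Upstream of CBF, the transcripts of ICE1 and ICE-like proteins, which activate CBF genes, and of MYB15, a repressor of them, numbered 13. After 6 h 0 were called higher and 1 lower, the MYB15 transcript c71097_g3_i5 (log2 change -0.67, adjusted p = 0.0135), whose level was under 2 FPKM in all libraries. Of all transcripts, 12.6% were called higher and 9.21% lower after 6 h, and 10.2% higher and 11.2% lower after 12 h. After 12 h 1 was called higher, an ICE1 transcript (c71663_g1_i7, 0.40, adjusted p = 0.0406), and 0 lower. Neither count was above the share of all transcripts called in that direction. Dehydrins and low-temperature-induced proteins, which are induced by cold and drought in many plants, had 9 transcripts, of which 6 were called higher after 6 h, 7 after 12 h and 0 lower in either. The dehydrin c38136_g1_i1 had medians of 410 FPKM after 6 h and 641 FPKM after 12 h, against 47.4 FPKM in the control. None of these 9 was called between 12 h and 6 h by limma, with 2 at an unadjusted p under 0.05.

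Because COR27 acts on clock genes in *Arabidopsis*, the clock genes were counted beside it. All 24 clock transcripts of 6 unigenes were called higher after 6 h and 22 after 12 h, and 15 were called lower and 1 higher after 12 h than after 6 h, with a median difference of -1.38. In the whole table, 12.6% of transcripts were called higher after 6 h and 10.2% after 12 h. Between 12 h and 6 h, 3.62% of the table was called lower and 1.29% higher. Pseudo-response regulator 5b (c70128_g1_i5) had a median of 30.4 FPKM after 6 h and 7.55 FPKM after 12 h, against 1.18 FPKM in the control, and its 12 h to 6 h log2 difference was -1.92 (adjusted p = 2.3e-07). COR27 thus had its highest level after 6 h, as did this clock transcript. Clock transcripts follow the hour of day in growing plants, and the part of harvest hour in the COR27 values cannot be told apart from that of cold.

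Markers of the tissue were counted as a check. Seed and embryo genes such as napin, cruciferin, oleosin and the LEC and FUS3 regulators had 36 transcripts, of which 9 were called higher and 0 lower in late against early stages. In the whole table, 3.43% of transcripts were called higher and 0.277% lower in that comparison. Of these 36, 0 were called after 6 h or 12 h by limma, with 0 and 2 at an unadjusted p under 0.05. Photosystem and light-harvesting proteins had 6 transcripts, of which 1 was called higher and 0 lower after 6 h, and 1 higher and 1 lower after 12 h. Of all transcripts, 12.6% were called higher and 9.21% lower after 6 h, and 10.2% higher and 11.2% lower after 12 h. Both transcripts with an actin-7-like best hit, isoforms of 1 unigene, had negative log2 changes (medians of -0.82 after 6 h and -0.86 after 12 h). Their unadjusted p in limma was under 0.05 in both comparisons, and none passed the threshold after adjustment (adjusted p = 0.0635 to 0.0991). The study used ACT7 as its qPCR reference and describes its expression as stable. Whether the ACT7 primers match these transcripts was not tested, and the table holds only transcripts that differed between some libraries. With ACT7 as that reference, the study reports from qPCR on independent biological replicates that COR27 and COR14 were cold-inducible at all stages. Those qPCR values were not re-examined here.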

How the data were processed

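RNA-seq was performed on 18 libraries, 1 for each of 6 stages and 3 durations, and groups were taken from the submitters' labels. After read filtering (NGS QC Toolkit), the authors made a Trinity assembly, aligned the reads to it (Bowtie2) and quantified transcripts with RSEM. The values deposited by the authors are FPKM scaled by TMM, for transcripts that edgeR called between some pair of libraries. For RSEM and edgeR, the version was not given in the sources used here. Best hits, with their scores as deposited, come from FastAnnotator. All columns of the expression table were matched to samples.

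FPKM was taken to log2(FPKM + 1). The model had a block for stage and a term for duration (limma 3.58.1, R 4.3.3). Cold was nested in phase for the difference between late and early stages, and these were compared on stage means. No filter was applied. The scripts were tested on simulated data. Python 3.11.15 with pandas 2.3.3, numpy 2.4.6 and matplotlib 3.10.9 was used for counts and plots. The members and gene lists were chosen with earlier results of these data known. KIN1 and KIN2 were matched only as whole names. Full values are given for the listed transcripts and the most abundant transcript of each unigene. BN28a c64555_g3_i1 was added after its values were seen. Up to 3 transcripts of each other list were eligible to be named, those with the smallest p, and for likeness the 3 highest correlations. Alternatives were a pseudocount of 0.1, a mean of at least 1 FPKM, median ratio rescaling, isoforms summed per unigene, no stage block, read class as a term, subsets of stages, leaving out each stage, control libraries only, and a plain match of KIN1 and KIN2. Chosen after seeing the data were the fit without the 5 DAP 6 h library and the fit with durations kept apart. No reference sequence was used here.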

Additional observations from a re-analysis of the deposited data

Results flagged for a closer look

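In 5 of the 27 groups of 6 libraries (9 transcripts in each of 3 durations), 1 library stood apart from the other 5. The rule is set for about 1 in 20 independent groups of replicates. Here the groups are isoforms measured in the same libraries, and the 6 values of a group are different stages. The count of flags can therefore not be set against that rate. The 25 DAP library was the lowest of the 12 h group for Cor25 c53443_g1_i1 (219 FPKM), Cor25 c53443_g1_i2 (307 FPKM) and COR14 c69711_g17_i1 (150 FPKM). The 30 DAP library was the highest of the control group for COR27 c64594_g1_i1 (7.92 FPKM) and c64594_g1_i3 (3.84 FPKM), while c64594_g1_i2 was at 2.19 FPKM in the same library, within the range of the other controls.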

How the results depend on the processing

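All 9 transcripts were called higher after 6 h, and all 9 after 12 h, with each stage left out in turn (9 each time), with a pseudocount of 0.1, with the filter, after rescaling and in 5 to 20 DAP alone. With isoforms summed per unigene, 4 of 4 unigenes were called higher at 6 h and 4 at 12 h, and 1 (COR27) was lower at 12 h than at 6 h. In 25 and 30 DAP alone, 0 members were called in the 3 comparisons of durations, as was true of all 13342 transcripts, with fewer libraries in the fit (6 of 9 members had an unadjusted p under 0.05 at 6 h and 6 at 12 h). The stage block pairs libraries by the stage given in the labels. Without the replicate block, 8 of 9 were called at 6 h and 8 at 12 h. The members lower after 12 h than after 6 h numbered 3 with each stage left out, and those higher numbered 0 to 1. The members called in the difference between phases numbered 0 in every fit. The members lower in late stages numbered 0 to 1 with each stage left out, and 0 with isoforms summed, in control libraries alone and without the 5 DAP 6 h library, the last chosen after seeing the data. No called value changed sign under any alternative.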
